A study of Rattus norvegicus with 4 samples.

Results

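The activity-induced immediate early genes Fos, Fosb, Fosl2, Jun, Junb, Egr1, Egr2, Arc, Nr4a1 and Npas4 were examined in the hippocampus of rats that ran in wheels. The 10 genes were listed by name, and their probes were found by matching the accession of each array spot to a gene symbol. Of the 10 genes, 9 had a probe and no probe matched Fosb, out of 8899 named genes on the array. Each of the 9 was measured by 1 of the 41012 probes. Jun, Egr1 and Arc had 10 spots each on every chip and the other genes 1 spot, or 36 spots per chip in all.

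Male Wistar rats, 10 weeks old at the start, were kept sedentary in standard cages (n = 10), ran at will in a wheel without resistance (WR, n = 8), or ran in a wheel with resistance (RWR, n = 8). The exercise lasted 4 weeks, and in RWR the load went from 4.5 g in the first week to 30% of body weight. The hippocampi were collected in the morning after the final exercise day and total RNA was pooled within each group. The methods describe equal amounts of RNA from replicates pooled within a group, without saying how many rats a replicate stands for. The numbers of rats given above are those of the groups, and a pool need not hold RNA of all of them.

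Every chip, of 4 in all, took 2 pools in different colours. Chips 1 and 2 compared WR with sedentary and chips 3 and 4 compared RWR with sedentary, with the Cy3 and Cy5 dyes exchanged between the chips of a pair. The running pool carried Cy5 on chips 1 and 3 and Cy3 on chips 2 and 4. In each comparison a group was 1 pool, and both chips of a pair repeat the same pools. No test between conditions was therefore possible, and every value below is a description of these pools. Whether both pairs used the same sedentary pool is not stated. All ratios are log2 of running over sedentary, and the error given with a mean is the SD of the chips of a pair (n = 2 chips), which holds no spread between rats.

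Immediate early genes are switched on within minutes of strong synaptic activity, without new protein synthesis, by factors that are already bound to their promoters. Serum response factor acts through the CArG box and CREB through the cyclic AMP response element (CRE). The transcripts are short-lived, so that their level in a tissue follows recent activity and handling. In the hippocampus these genes are used as markers of neurons that have been active, and several are needed for lasting synaptic change and memory.

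The promoter stretches that hold these elements are shown for Egr2, Nr4a1 and Junb, because they are the known entry points of neuronal activity to this gene group. They were taken from a table of RefSeq promoters (GRCr8 build), each of 250 bases before to 50 bases after the gene start, in which 7 of the 10 genes were matched by symbol and Fos, Jun and Arc were not. Capitals mark CArG boxes and the core of the CRE, TGACG, read on either strand. The stretches lie at chr20:21054491-21054536 on the minus strand, chr7:134259888-134260101 on the plus strand and chr19:40080959-40080987 on the plus strand.
Egr2: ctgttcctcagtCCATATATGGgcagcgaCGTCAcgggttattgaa
Nr4a1: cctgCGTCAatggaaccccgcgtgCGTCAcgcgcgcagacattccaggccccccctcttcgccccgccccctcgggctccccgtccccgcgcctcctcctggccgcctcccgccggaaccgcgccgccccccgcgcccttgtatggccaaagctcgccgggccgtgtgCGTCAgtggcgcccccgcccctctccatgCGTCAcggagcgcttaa
Junb: gcttcctgacagTGACGcgagccgcctcc
Egr2 held a CArG box at positions -83 to -74 from the start and a CRE core at -66 to -62. Egr1, whose sequence is not shown, held 2 CArG boxes and 2 CRE cores in its window, Nr4a1 4 CRE cores and Junb 1. A CArG box occurred in 2 of the 7 promoters and in 1.64% of all 33469 promoters of the same length. A CRE core occurred in 4 of the 7 and in 21.2% of all, and the palindromic CRE TGACGTCA in 0 of the 7 and in 1.83% of all. The AP-1 site TGANTCA, which Fos and Jun proteins bind as dimers, was in 0 of the 7 and in 7.33% of all, and the Egr site GCGNGGGCG in 2 of the 7 (Fosl2 and Nr4a1) and in 4.98% of all. These are letter matches in this window and not shown binding.

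Of the 9 measured genes, 8 stood well above background in each dye on all 4 chips. Npas4, a neuron-specific transcription factor induced by calcium entry, was not well above background in any of its 8 signals. Its processed signals lay between 3.77 and 6.98, under the lowest signal called well above background on any chip (9.43), and no fold is given for it.

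None of the 9 genes passed the fold cutoffs of the study in WR or in RWR. To pass here, a ratio had to exceed 1.5-fold on each chip of the pair, or to stay under 0.75-fold on each. The study asked for a ratio that reverses when the dyes are exchanged, without stating that each chip had to meet the cutoff. By the rule used here 87 probes passed upward and 138 downward in WR, and 36 and 572 in RWR. These counts differ from the gene counts of the study. Of all probes, 0.212% passed upward and 0.337% downward in WR, and 0.0878% upward and 1.39% downward in RWR. When a p-value under 0.01 of the array software was asked for as well, 0.0317% of the probes passed in WR, 0.0585% in RWR and again 0 of the 9 genes. The mean ratios of the 8 detected genes lay between -0.23 (Fos) and 0.13 (Fosl2) in WR, with a median of 0.05. In RWR they lay between -0.07 (Jun) and 0.21 (Arc), with a median of -0.01. The median over all probes well above background was 0.0031 in WR and 0.0044 in RWR, and 90% of such probes lay between -0.15 and 0.17 in WR and between -0.17 and 0.19 in RWR. Fos in WR lay below this band and Arc in RWR above it.

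**Figure D1:**
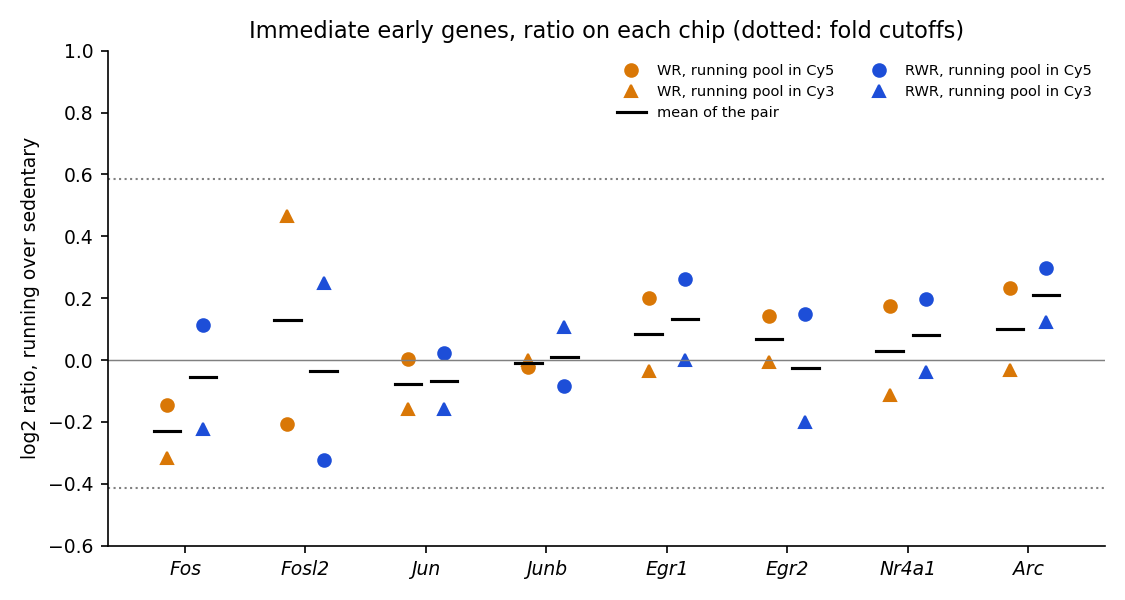
Log2 ratio of running over sedentary (vertical axis) on each of the 4 chips for the 8 genes well above background. Circles have the running pool in Cy5, triangles in Cy3, bars are the mean of the pair and dotted lines the fold cutoffs; no mean reaches a cutoff, and the symbols of a pair lie on the same side of 0 only for Fos in WR and Arc in RWR.

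The chips of a pair differed in a manner that followed the dye. The dye term, which is the difference between running in Cy5 and running in Cy3 divided by 2, was larger than the mean of the pair for 7 of the 8 genes in WR and 7 of 8 in RWR. This was also so for 71.8% and 68.0% of all probes well above background. The running pool read higher in Cy5 than in Cy3 for 6 of the 8 genes in each comparison, and Fosl2 and Junb went the other way. After the ratios were turned to running over sedentary, the chips of a pair correlated at -0.76 in WR and -0.69 in RWR over all probes. The direction of each ratio was taken from the dyes in the labels. The gene with the smallest dye term was Junb in WR (-0.01) and the one with the largest Fosl2 in WR (-0.34).

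**Figure D2:**
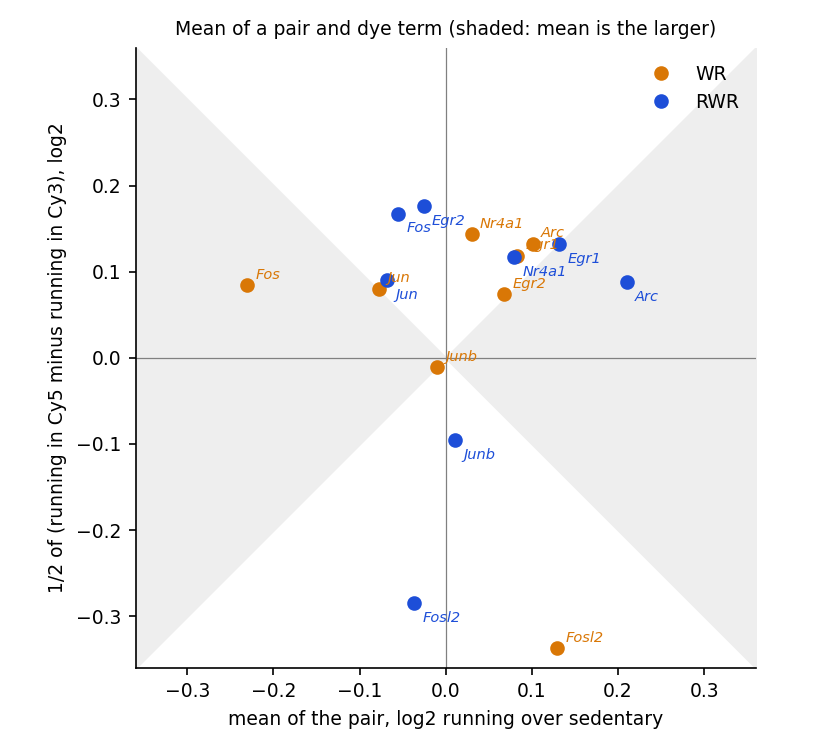
Mean of the pair (horizontal axis, log2 running over sedentary) against the dye term (vertical axis, log2) for the 8 genes in WR and RWR. In the shaded area the mean is the larger of both; Fos in WR (-0.23 against 0.08) and Arc in RWR (0.21 against 0.09) are the points there.

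Arc encodes a cytoskeletal protein of the postsynaptic side that takes part in the removal of AMPA receptors and whose mRNA is carried into dendrites. It had the highest mean ratio of the detected genes in RWR. Its ratios were 0.23 on chip 1 and -0.03 on chip 2 in WR, and 0.30 on chip 3 and 0.12 on chip 4 in RWR. The mean was 0.10 ± 0.19 (1.07-fold) in WR and 0.21 ± 0.12 (1.16-fold) in RWR. Both RWR chips lay above 0, and the WR chips lay on either side of it. The software error of the Arc ratio was 0.20 to 0.21 per chip, wider than the ratio itself on chips 2 and 4.

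The 10 spots of Arc tell how closely a chip repeats itself. All 10 spots lay above 0 on chip 1 (0.19 to 0.30), chip 3 (0.26 to 0.32) and chip 4 (0.09 to 0.16), and 2 of 10 did so on chip 2 (-0.07 to 0.01). The SD of the 10 spots was 0.018 to 0.030, against a median of 0.031 to 0.036 per chip over the 196 detected probes with 10 spots. The spots of a chip share labelling and dye, and their SD was smaller than that of the chips of a pair. Among these 196 probes, 7 including Arc had a mean in RWR as far from 0 as that of Arc, and 40 did so in WR. Of all detected probes, 6.56% were as far from 0 as Arc in RWR and 23.6% in WR.

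**Figure D3:**
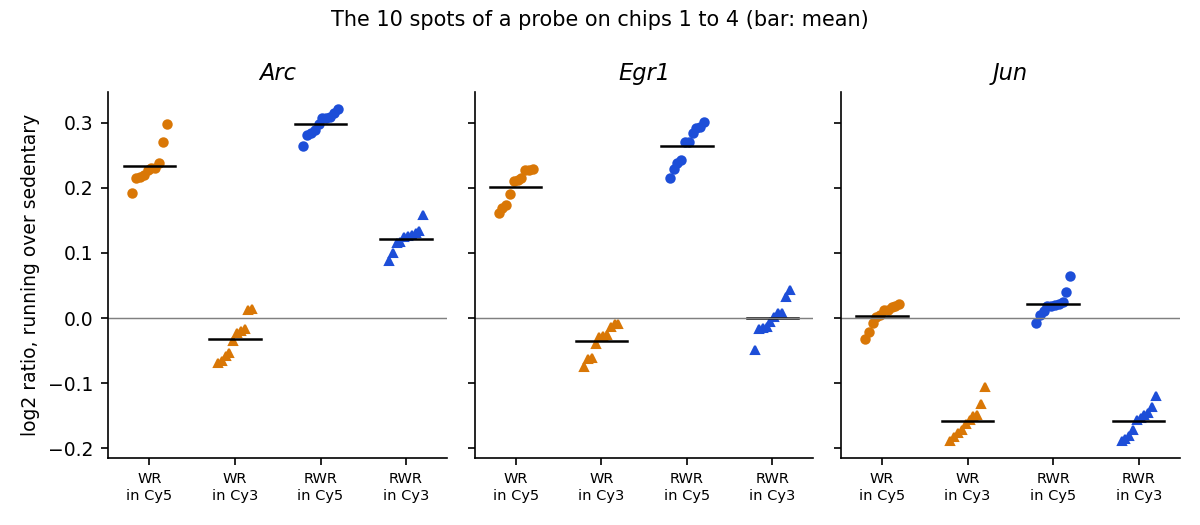
Log2 ratio of running over sedentary (vertical axis) at each of the 10 spots of Arc, Egr1 and Jun on chips 1 to 4 (horizontal axis, by running pool and its dye), with the mean as a bar. The spots of a chip lie close together, and the step between the dye orientations of a pair is larger than the spread of the spots.

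Egr1 and Egr2 encode zinc finger factors of the same family, and Egr1 is required for late phases of long-term potentiation. The ratios of Egr1 were 0.20 and -0.04 in WR and 0.26 and -0.00064 in RWR. Its mean was 0.08 ± 0.17 in WR and 0.13 ± 0.19 in RWR, and the spots above 0 numbered 10, 0, 10 and 5 of 10 on chips 1 to 4. Egr1 was thus higher in the running pool when that pool was in Cy5, and near or below 0 in the exchange.

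Egr2 gave 0.14 and -0.01 in WR and 0.15 and -0.20 in RWR. The means were 0.07 ± 0.10 and -0.03 ± 0.25, within the spread of the chips. Its software error on 1 chip was 0.22 to 0.25, wider than any of these ratios.

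Nr4a1 encodes an orphan nuclear receptor that works as a transcription factor. Its ratios were 0.17 and -0.11 in WR and 0.20 and -0.04 in RWR, with means of 0.03 ± 0.20 and 0.08 ± 0.17. The chips of each pair lay on either side of 0, as for Egr1.

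Fos and Jun proteins pair as the AP-1 transcription factor. Fos was the detected gene with the lowest mean in WR, at -0.15 and -0.32 on chips 1 and 2, a mean of -0.23 ± 0.12 (0.852-fold). In RWR its chips gave 0.11 and -0.22, a mean of -0.06 ± 0.24. Both WR chips lay below 0 and the RWR chips on either side. Of all detected probes, 3.95% were as far from 0 as Fos in WR and 52.3% in RWR. Fos had 1 spot with processed signals of 43.4 to 63.8, and the software error of its ratio was 0.25 to 0.29 per chip. Without background correction its mean was -0.13 in WR and 0.03 in RWR, so that the RWR value changed sign.

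Jun gave 0.0029 and -0.16 in WR and 0.02 and -0.16 in RWR. The means were -0.08 ± 0.11 and -0.07 ± 0.13. With the running pool in Cy3 none of its 10 spots lay above 0 on chip 2 or chip 4, and with Cy5 7 and 9 of 10 did.

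Junb, an AP-1 partner that often opposes Jun, gave -0.02 and 0.00088 in WR and -0.08 and 0.11 in RWR. Its means of -0.01 ± 0.015 and 0.01 ± 0.13 were the nearest to 0 of the 8 genes, and both changed sign with normexp background correction (0.025 and -0.0077).

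Fosl2, a Fos family member known for slower and longer expression than Fos, gave -0.21 and 0.47 in WR and -0.32 and 0.25 in RWR. The means were 0.13 ± 0.48 and -0.04 ± 0.40, the widest spread of the 8 genes, and the higher value came with the running pool in Cy3 in both pairs.

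The signals were also compared within each dye, where every dye held 2 sedentary, 1 WR and 1 RWR signal. This view was chosen after the ratios had been seen. Signals were put on a common scale over the 4 chips with Aquantile normalization, and it is assumed that the sedentary pool was the same on all chips. For 2 genes, Arc and Egr1, the WR and RWR signals lay above both sedentary signals in both dyes, and for Jun they lay below in both. Over the 24953 probes well above background in all signals, 4.00% lay above in this way and 4.08% below.

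The Arc levels in Cy3 were 3562 and 3434 in sedentary, 3683 in WR and 3970 in RWR. In Cy5 they were 3764 and 3647 in sedentary, 4189 in WR and 4221 in RWR. The order was sedentary, WR, RWR in both dyes, and WR and RWR in Cy5 were nearly equal. The gap between WR and the nearer sedentary level in Cy3 was 0.048 on the log2 scale. The SD of the 10 spots was 0.041 in that WR signal and 0.051 in that sedentary signal. The WR spots overlapped the sedentary spots in both dyes, and the RWR spots did not. With the 75th percentile of each dye as the scale, Arc in RWR was no longer the highest signal in both dyes, and both running pools stayed above sedentary.

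For Egr1 the Cy3 levels were 2359 and 2461 in sedentary, 2621 in WR and 2682 in RWR. The Cy5 levels were 2686 and 2683 in sedentary, 2713 in WR and 2955 in RWR. The gap between WR and the nearer sedentary level in Cy5 was 0.014 on the log2 scale, smaller than the SD of its 10 spots within that signal (0.093).

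For Jun the Cy3 levels were 4094 and 4059 in sedentary, 3815 in WR and 3763 in RWR. The Cy5 levels were 4256 and 4201 in sedentary, 4102 in WR and 4120 in RWR. The gap in Cy5 was -0.03 and that in Cy3 -0.09, and the spots of the groups overlapped in both dyes.

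Nr4a1 was highest in RWR in both dyes, with Cy3 levels of 2031 and 2146 in sedentary, 2100 in WR and 2290 in RWR. Its Cy5 levels were 2272 and 2350 in sedentary, 2291 in WR and 2459 in RWR, so that WR lay among the sedentary signals in both dyes. RWR was the highest signal in both dyes for 3 of the 8 genes (Egr1, Arc and Nr4a1). The same held for 7.33% of the probes well above background in all signals. Without scaling between chips it held for 0 of the 8 genes and for 4.07% of these probes. The remaining genes did not separate in both dyes. The sedentary levels of Fos alone were 64.9 and 49.4 in Cy3, which is a wider step than that between its running and sedentary signals in Cy5 (58.6 and 53.4 against 59.0 and 54.9).

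**Figure D4:**
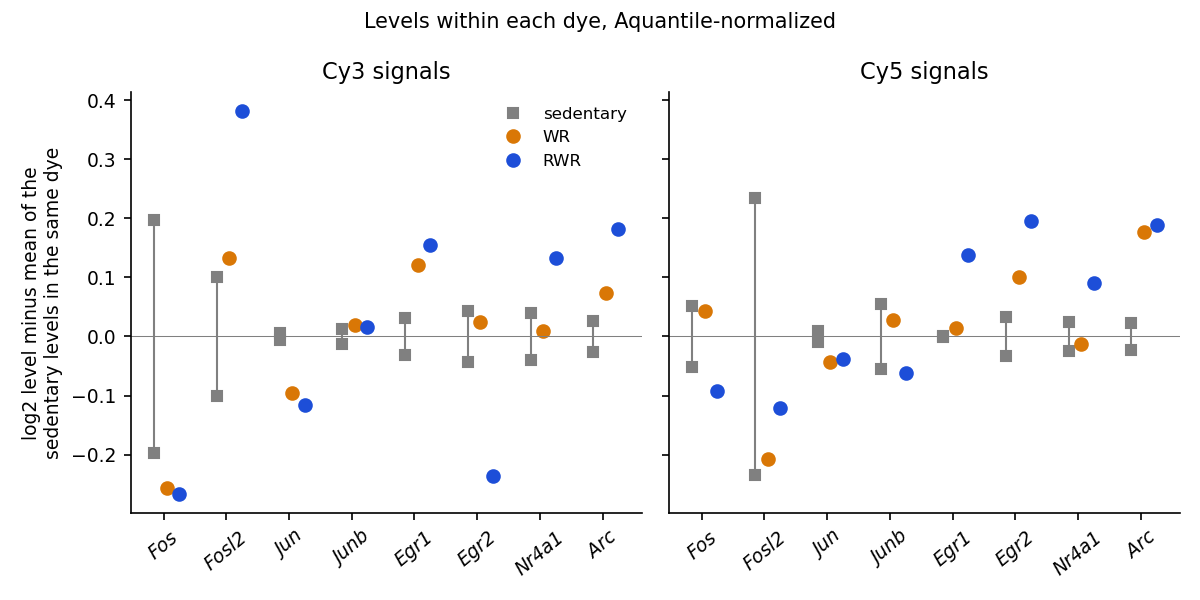
Log2 level of each gene minus the mean of the sedentary levels in the same dye (vertical axis), for Cy3 on the left and Cy5 on the right. Grey squares are the sedentary signals of different chips and circles the running pools; Arc and Egr1 lie above the squares and Jun below them in both panels.

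RWR was set against WR within each dye, beside the difference of the sedentary signals of the same chips. The mean RWR minus WR difference ranged from -0.08 (Egr2) to 0.17 (Fosl2) over the 8 genes. The sedentary signals of the same chips differed by -0.25 (Fos) to 0.33 (Fosl2). Nr4a1 was 0.11 higher in RWR (0.10 in Cy5 and 0.12 in Cy3), with 0.06 between the sedentary signals. Egr1 was 0.08 higher (0.12 and 0.03), with 0.03, and Arc 0.06 higher (0.01 and 0.11), with -0.05. For Fos (-0.07), Fosl2, Jun (-0.01) and Junb (-0.05) the sedentary signals differed by more than the running signals did. Taken instead as the RWR ratio minus the WR ratio, each over its own sedentary signals, the difference was 0.05 for Nr4a1, 0.05 for Egr1 and 0.11 for Arc. For Fos (0.18), Fosl2 (-0.17), Jun (0.0089) and Junb (0.02) it had the opposite sign. In 90% of the detected probes the same-dye RWR minus WR difference lay between -0.29 and 0.29, which holds all 8 genes.

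Other activity-regulated genes were read from 3 lists with 61 genes, of which 47 had a probe. They were 17 further immediate early transcription factors, 34 effector and feedback genes and 10 upstream factors. None of the 47 passed the cutoffs on both chips in either direction in WR or RWR. Of all probes, 0.212% passed upward and 0.337% downward in WR, and 0.0878% and 1.39% in RWR. At shares this small, 0 of 47 does not set these genes apart. The median ratio of those well above background was -0.0039 in WR (41 genes) and 0.05 in RWR (40 genes). Both chips lay above 0 for 12 and below 0 for 9 of them in WR, and for 17 and 6 in RWR. Over all detected probes, the chips of a pair had the same sign for 28.2% in WR and 32.0% in RWR. Among the effector and feedback genes the medians were 0.05 and 0.09, and among the further transcription factors -0.04 and 0.02. Both comparisons have the sedentary group as their base, so their values cannot be taken as independent.

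Nptx2, a secreted pentraxin that gathers AMPA receptors at synapses, gave 0.34 in WR (0.40 and 0.27 on its chips) and 0.23 in RWR (0.23 and 0.24). Dusp5, a phosphatase that switches off ERK, gave 0.26 (0.12 and 0.40) and 0.24 (0.11 and 0.37). These genes lay above 0 on all 4 chips, and so did Ptgs2, Bdnf and Pcsk1. Homer1, Inhba, Nrn1, Vgf and Mef2a, named after their values were seen, did so too. The other Mef2a probe gave -0.04 in WR and 0.11 in RWR. The share of all detected probes above 0, or below 0, on all 4 chips was not counted. Lying on 1 side of 0 on all 4 chips therefore cannot be read as a common rise or fall. Ptgs2, the inducible cyclooxygenase, gave 0.20 in WR and 0.12 in RWR, and 0.05 and 0.10 at its other probe. Bdnf, the neurotrophin that strengthens synapses, gave 0.15 and 0.09, and 0.13 and 0.14 at its other probe. Pcsk1, a prohormone convertase, gave 0.18 in RWR and 0.12 in WR, and 0.13 and 0.20 at its other probe. Gpr3, a receptor that raises cyclic AMP, gave 0.18 in RWR and -0.10 in WR, while its other probe gave 0.03 and 0.14.

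The lowest value in WR was that of Ccn1, a matrix protein, at -0.43, while its other probe gave -0.01. Jund, a constitutive AP-1 member, gave -0.15 in WR and 0.13 at its other probe. Rgs2, which shortens G protein signals, gave -0.09 in WR and -0.06 in RWR, and lay below 0 on all 4 chips. In RWR the zinc finger factor Klf4 gave -0.15, the kinase Sgk1 -0.06 and the cyclic AMP modulator Crem -0.05. Crem also lay below 0 on all 4 chips, as did Gadd45g, named after its values were seen.

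**Figure D5:**
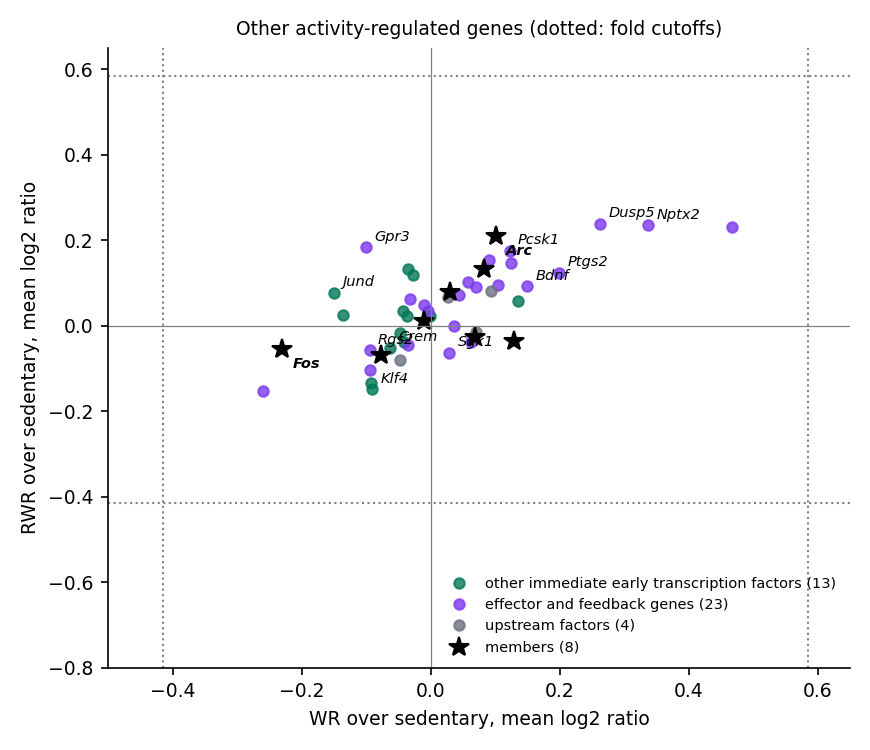
Mean log2 ratio in WR (horizontal axis) and RWR (vertical axis) of 40 other activity-regulated genes well above background, coloured by list, with the 8 immediate early genes as stars. Dotted lines are the fold cutoffs; Nptx2 and Dusp5 lie to the upper right at 0.34 and 0.23 and at 0.26 and 0.24, and no gene passed the cutoffs on both chips.

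The levels of the 8 detected genes showed little common movement on average. Their mean profile over the 8 dye signals, centred within each dye, ranged only from -0.023 to 0.025 on the log2 scale. The correlation of each gene with the mean of the other 7 ran from -0.86 (Fos) to 0.53 (Nr4a1) over the 8 signals, which repeat the RNA of 3 groups. Egr1 (0.31) and Arc (0.13) also lay above 0. Because the mean of all 8 genes stayed near 0, a gene with large swings must run against the mean of the others. The negative values therefore cannot show whether the genes moved apart. The 5 genes most like the mean profile, of 5919 candidates, were Tcea1 (r = 0.95), Pak3 (0.95), P2ry12 (0.95), Ptpn6 (0.94) and Wdr70 (0.93). With 8 signals and so many candidates, these values describe the arrays and no more.

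The share of spots well above background was 67.5% to 77.6% in Cy3, and 71.7% to 82.5% in Cy5, and no member spot carried an outlier flag. The hippocampal neuron markers Slc17a7, Camk2a and Wfs1 were detected in all signals, with ratios of -0.01 to 0.10 in WR and -0.09 to 0.04 in RWR. Of the markers of neighbouring tissue, Gh1 and Pomc of the pituitary, Avp and Hcrt of the hypothalamus and Ppp1r1b of the striatum were well above background in all signals. Prl, Oxt, Drd1 and Drd2 of the same lists were not. The choroid plexus markers Ttr and Folr1 were lower in WR, at -0.86 and -0.21, and gave 0.12 and 0.06 in RWR. Kl and Kcnj13 of the same list were not well above background in all signals. They went the other way in WR, at 0.43 and 0.28, and gave 0.30 and -0.52 in RWR. The 4 oligodendrocyte markers lay between -0.07 and -0.06 in WR and between -0.24 and -0.04 in RWR. The part of these cell types in the ratios of the immediate early genes was not tested. In pooled tissue, fewer cells of a type and less RNA per cell cannot be told apart.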

How the data were processed

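RNA from sedentary, WR and RWR hippocampi was measured on 4 chips of a rat 4x44K array designed on the rn4 build. The authors used Feature Extraction 11.0.1.1, per the submitters' processing notes (spatial detrending of the background, LOWESS dye normalization). The deposited intensity of each dye is the processed signal, the deposited log10 ratio is Cy5 over Cy3, set to 0 where not measurable, and the deposited p-value comes from the software error model of 1 chip. The deposited series matrix holds log10 ratios without that setting.

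Control spots and 118 to 140 outlier spots per chip were removed. Each ratio was turned to running over sedentary by the labelled dyes, converted to log2, averaged over the spots of a probe and then over the pair. Accessions were matched without version to RefSeq (GRCr8, names only), which named 10768 of 41012 probes. For genes with more than 1 probe the brightest was used. Levels in 1 dye used Aquantile in limma 3.58.1 (R 4.3.3). Other work used Python 3.11.15, pandas 2.3.3 and numpy 2.4.6.

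The members and gene lists were chosen with earlier results of these data known. Of the further activity-regulated genes, those named had the 4 largest rises or falls per comparison among genes well above background with the same sign on both chips. Alternatives were normexp (offset 50) or no background subtraction of the median signals with loess, centring on the chip median, matrix ratios, dim-probe and p-value filters, 75th percentile scaling, and single chips. The call rule was tried on simulated data with planted changes well past the cutoffs, which do not cover changes as small as those of these genes. The number of chips limits the precision.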

Additional observations from a re-analysis of the deposited data

How the results depend on the processing

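The median ratio over all 9 measured genes, Npas4 included, was 0.07 in WR and -0.03 in RWR. In WR it was 0.034 without background correction. With a chip of the pair left out it ran from -0.032 to 0.0029 in WR and from -0.037 to 0.11 in RWR, and the number of genes past the cutoffs from 0 to 1 in both comparisons. The 1 gene on the remaining chip alone was Npas4, not well above background, where 28.9% (chip 2) and 25.7% (chip 4) of all probes passed. With the cutoffs set on the pair's mean, 1 gene passed in RWR, which was Npas4, at signals not well above background. Without scaling between chips, 0 genes had both running signals above or below the sedentary signals in both dyes, against 2 above and 1 below with Aquantile, while over all detected probes the shares went from 4.00% and 4.08% to 0.281% and 0.489%. The Arc mean stayed between 0.20 and 0.21 in RWR under the background, centring and series matrix alternatives. The RWR minus WR difference of Fos turned from -0.07 to 0.18 and that of Fosl2 from 0.17 to -0.17 when the ratios over sedentary were subtracted instead. The causes were not tested. No paired analysis was possible because each group was 1 pool in a comparison. With 1 pool per group and 1 spot for most genes, small differences were not resolved.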
